A study of Mus musculus with 4 samples.

Results

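The muscle and fibroblast microRNA genes described here are Mir199a-2, Mir214, Mir21a, Mir145a, Mir143, Mir133a-1, Mir1a-2, Mir1a-1 and Mir133a-2, which were chosen by name for their known roles in these tissues and not by any measured value. A peak belonged to them when it overlapped 1 of the genes or its flanks of 50 kb on either side, with gene positions from RefSeq on GRCm38.p6, the assembly known as mm10. Genes whose windows overlapped were taken as 1 locus, which gave 5 loci for the 9 genes. Overlapping peaks of the 4 libraries, by 1 bp or more, were joined into merged regions, and 58 of the 90239 merged regions of the series fell in these loci. The measurement was bulk ATAC-seq, in which the transposase Tn5 cuts and tags open chromatin, so that a peak marks accessible DNA and not the level of a microRNA. There were 2 libraries with an siRNA against Chst7 (siChst7), a gene that encodes an enzyme adding sulfate to chondroitin chains, and 2 libraries with a control siRNA (siControl). All 4 libraries, of both siRNAs, came from the iMGT-Myh6-eGFP-MEF line, mouse embryonic fibroblasts in which doxycycline turns on the heart transcription factors Mef2c, Gata4 and Tbx5 and whose name carries a reporter for the heart myosin gene Myh6. Transfection took place before doxycycline was given at 1 μg/mL, and cells were taken on day 1 of induction, so no library without the 3 factors was part of the comparison. The labels name 1 line, do not say whether it is a single clone, and call the replicates biological without stating whether they were separate cultures. A p-value here therefore measures only the spread between these samples. Peaks at Chst7 are no check of the siRNA labels, because an siRNA lowers a transcript, and the level of Chst7 RNA was not measured in these files.

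MicroRNAs are cut from hairpins within longer primary transcripts by Drosha and Dgcr8 and then by Dicer, and an Argonaute protein uses their seed to find and repress messenger RNAs. miR-1 and miR-133a are made from bicistronic transcripts in heart and skeletal muscle under serum response factor, Mef2 and MyoD, and both have been added to cocktails that turn fibroblasts into cardiomyocyte-like cells. miR-143 and miR-145 are made together in smooth muscle and mesenchymal cells, miR-21 is abundant in fibroblasts and linked to fibrosis, and miR-199a and miR-214 are made from Dnm3os in mesenchyme.

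The mature sequences of these genes that RefSeq (GRCm38.p6) held in the table used here are given to show the products of these genes and their seeds, 5′ to 3′ with the seed, bases 2 to 8, in capitals. They came from 4 of the 9 genes, Mir1a-1, Mir21a, Mir199a-2 and Mir214, and were 7 sequences with 7 distinct seeds. Only the 5p sequence was held for Mir1a-1, so its 3p sequence and the seed of that sequence are not shown. Among the mature sequences searched, the seed of miR-199a-3p is shared with miR-199b-3p, that of miR-21a-5p with miR-21c, and that of miR-214-3p with miR-761. The set searched was incomplete, since it lacked genes named here. A seed without a listed match is therefore not known to be unshared.
miR-1a-1-5p: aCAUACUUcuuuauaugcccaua
miR-21a-5p: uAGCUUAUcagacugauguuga
miR-21a-3p: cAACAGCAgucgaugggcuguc
miR-199a-5p: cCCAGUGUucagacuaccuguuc
miR-199a-3p: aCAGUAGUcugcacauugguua
miR-214-5p: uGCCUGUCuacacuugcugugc
miR-214-3p: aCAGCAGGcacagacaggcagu

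The Mir199a-2 hairpin at chr1:162217814-162217923 (plus strand) is given because it lay whole under a peak in all 4 libraries. The mature arms are in capitals.
Mir199a-2 hairpin: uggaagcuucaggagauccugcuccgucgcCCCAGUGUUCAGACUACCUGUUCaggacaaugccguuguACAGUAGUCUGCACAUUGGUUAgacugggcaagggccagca

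The promoters of the host transcripts Dnm3os and Mir1a-1hg are given as a pair because all 300 bases of the Dnm3os promoter lay under a peak in each of the 4 libraries, while 0 bases of the Mir1a-1hg promoter did. Each runs from 250 bases before the start of the gene to 50 bases after it, and capitals mark matches to the motifs searched on both strands. These were the E-box CANNTG, the CArG box bound by serum response factor, the MEF2 box, GATA, and the AP-1 motif TGANTCA. The Dnm3os promoter, chr1:162217373-162217672 (plus strand), held 3 E-boxes, starting at bases 55, 113 and 293, and 1 CArG box at base 218. The Mir1a-1hg promoter, chr2:180385354-180385653 (plus strand), held 2 E-boxes, at bases 118 and 184. No match overlapped another. Neither window held the letters of a MEF2 box, GATA or AP-1 motif. Of all 32851 promoters of this length, 72.3% held an E-box, 1.63% a CArG box, 3.19% a MEF2 box, 57.9% GATA and 7.81% the AP-1 motif.
Dnm3os promoter: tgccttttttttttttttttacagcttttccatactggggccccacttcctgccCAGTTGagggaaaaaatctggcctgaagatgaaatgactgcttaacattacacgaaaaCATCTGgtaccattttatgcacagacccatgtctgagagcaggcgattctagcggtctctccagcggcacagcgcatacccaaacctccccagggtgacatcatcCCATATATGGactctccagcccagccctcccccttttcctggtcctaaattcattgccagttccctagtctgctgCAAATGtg
Mir1a-1hg promoter: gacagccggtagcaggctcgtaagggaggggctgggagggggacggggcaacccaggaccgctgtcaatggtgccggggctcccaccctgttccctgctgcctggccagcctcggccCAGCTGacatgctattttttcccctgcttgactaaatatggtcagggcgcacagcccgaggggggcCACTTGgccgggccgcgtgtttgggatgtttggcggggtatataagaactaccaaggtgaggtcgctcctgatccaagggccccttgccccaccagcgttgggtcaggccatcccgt

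The 5 loci differed in how much accessible chromatin they held and in how close it lay to the hairpins. At Mir199a-2 and Mir145a a region called in all 4 libraries lay over the hairpin itself, although at Mir145a the peak of siChst7 replicate 1 in that region stopped short of it. At Mir133a-1, Mir1a-2, Mir143, Mir214 and Mir21a the nearest such region lay 0.302, 1.00, 1.13, 2.04 and 2.23 kb away. At Mir133a-2 and Mir1a-1 it lay 33.6 and 35.3 kb away. The Mir21a locus held the most regions, 19, of which 14 were called in all 4 libraries. The Mir145a and Mir143 locus held 13 regions with 8 called in all 4, the Mir199a-2 and Mir214 locus 9 with 8, the Mir1a-1 and Mir133a-2 locus 10 with 4, and the Mir133a-1 and Mir1a-2 locus 7 with 4. In bulk libraries the share of cells with open chromatin and the degree of opening per cell cannot be told apart. In all, 38 of the 58 regions, or 65.5%, were called in all 4 libraries, against 62% of all merged regions. The map of peaks along the loci shows each peak by its position and by its −log10 q. That is the authors' measure of the significance of the summit in that library, while its height over the background is given by the fold enrichment.

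**Figure D1:**
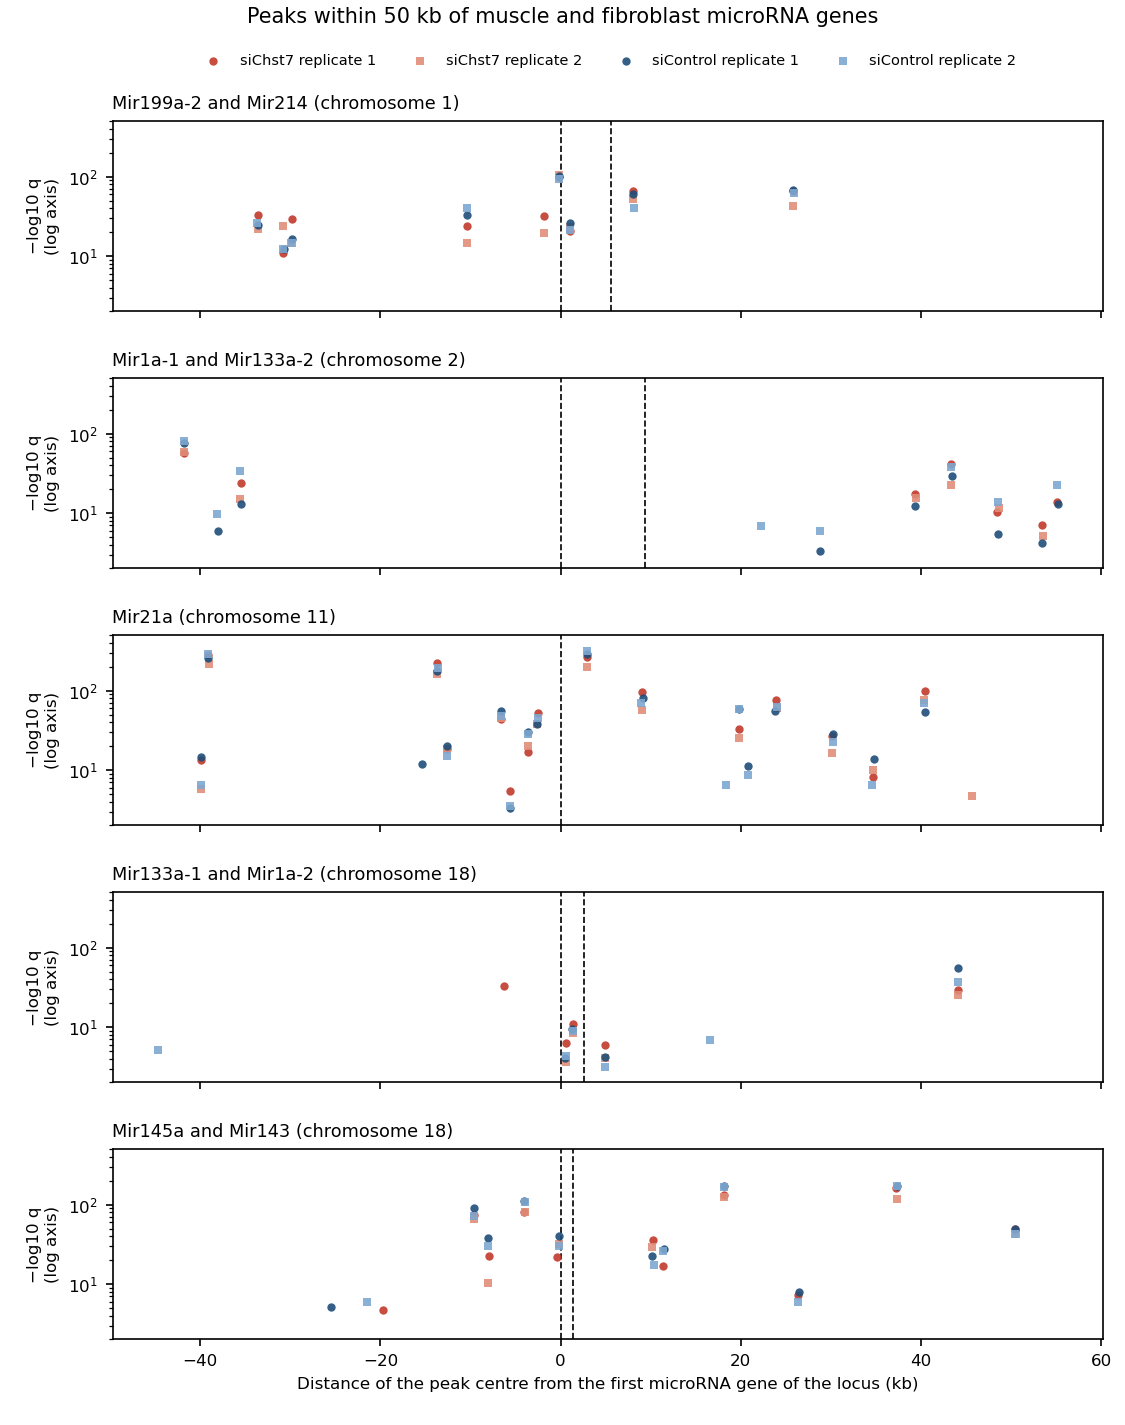
Each point is 1 peak of 1 library, at the distance of its centre in kb from the lowest-coordinate microRNA gene of the locus (x axis, in genome direction) and at its −log10 q (y axis, log scale). Red points are siChst7 and blue points siControl libraries, circles replicate 1 and squares replicate 2, and dashed lines mark the microRNA genes. At Mir1a-1 and Mir133a-2 a stretch of 57.4 kb around both genes holds no point, while at Mir21a the peaks 2.23 kb away reach 317.

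The fold enrichment and −log10 q of a peak are the authors' own values for that peak within its own list, and are used below only to describe and rank peaks. The deposited lists held 74331 and 66103 peaks on chromosomes 1 to 19, X and Y in siChst7 replicates 1 and 2, and 73834 and 75619 in siControl replicates 1 and 2, with the lowest −log10 q just above 2 in each. Read totals are unknown from these lists. The list of siChst7 replicate 2 was the shortest, and 4 of the 6 member regions called in 3 libraries lacked a peak in it. Over the series the same was true of 4792 of the 9388 regions called in 3 libraries. Markers for the label were read from a region called in all 4 libraries within 1 kb of a gene end. Of the fibroblast markers 6 of 8 had one, including Col1a1, Col1a2, Thy1, Postn, Twist1 and Pdgfrb, while Lum and Tcf21 had none. It was 4 of 8 for cardiomyocyte, 5 of 6 for smooth muscle, 3 of 6 for skeletal muscle, 0 of 4 for endothelial, 1 of 4 for immune and 1 of 4 for epithelial markers, against 54.4% of protein-coding genes. Myh6 was among the 4 cardiomyocyte markers, and whether reads of the Myh6 reporter add to its region was not tested. What other cell types contribute to the regions below was not tested.

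Mir199a-2 and Mir214 lie within Dnm3os, the long noncoding RNA that serves as their primary transcript (chr1:162217623-162225550, plus strand). Dnm3os in turn lies within the gene Dnm3, which encodes a dynamin and is transcribed from the opposite strand. The region over the Mir199a-2 hairpin, chr1:162217220-162218087, also covered the start of Dnm3os and the promoter shown above, and it had the highest mean −log10 q of the locus. Its −log10 q was 99.97 and 103.6 in siChst7 replicates 1 and 2, and 102.7 and 93.5 in siControl replicates 1 and 2. Its fold enrichment was 8.13 and 9.64 in siChst7, and 8.75 and 8.44 in siControl. Both siControl fold enrichments lay between the siChst7 ones, and the −log10 q overlapped too. The share of peaks in the same list with a higher −log10 q was 14.3% and 10.4% in siChst7 and 14.2% and 15.4% in siControl. The summit lay at −193 and 30 bp from the start of Dnm3os in siChst7, and at 32 and 34 bp in siControl, so 3 of the 4 summits fell within a few bases of each other just inside the transcript and that of siChst7 replicate 1 lay upstream.

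The siChst7-specific region of these loci, meaning a region with a peak in both siChst7 libraries and in neither siControl library, lay 1.76 kb upstream of Mir199a-2 and 1.57 kb before the start of Dnm3os, at chr1:162215799-162216050, within Dnm3. Its peaks were 218 and 252 bp wide, with a −log10 q of 31.6 and 19.7 and a fold enrichment of 4.51 and 4.08. By its mean −log10 q it ranked 13 among the 1122 siChst7-specific regions of the series, whose median was 6.68. Its fold enrichment, by contrast, lay below the median of all peaks in the lists of siChst7 replicates 1 and 2, which was 7.71 and 8.08. Both peaks passed a −log10 q of at least 5 and 10, widths of at least 200 bp and the cut to lists of equal length. Such limits only remove peaks, so the calls were then bound to stay. They were also bound to stay when any 1 library was left out, so none of this is further evidence for the region. With windows of 200 bp around the summits the calls were the same. The absence of a peak from a list does not give the signal there in that library. The map of peaks around Dnm3os sets this region beside its neighbours.

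**Figure D2:**
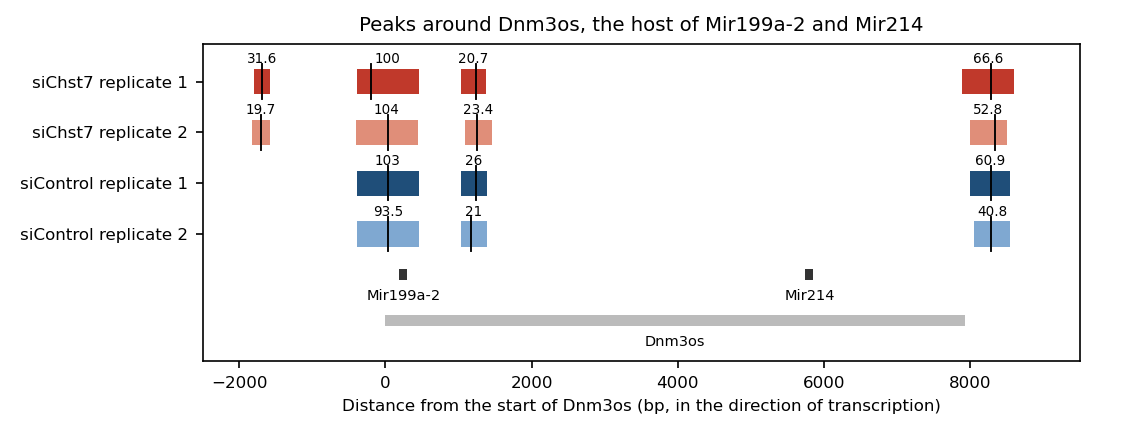
Bars are peaks in each library around Dnm3os (x axis, bp from its start in the direction of transcription), with the −log10 q above each bar and a black tick at the summit. The upper pair of rows is siChst7 and the lower pair siControl, with the genes below. The bar 1.57 kb before the start is present only in the siChst7 rows, at 31.6 and 19.7.

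A further region lay 0.732 kb downstream of Mir199a-2, at chr1:162218655-162219075, with a −log10 q of 20.7 and 23.4 in siChst7 and 26.0 and 21 in siControl. Mir214, further along the transcript, had no peak over its hairpin. The region nearest to it covered the end of Dnm3os, chr1:162225515-162226222, with a fold enrichment of 11.9 and 11.8 in siChst7 and 13.1 and 10.02 in siControl. The −log10 q of that region was 66.6 and 52.8 in siChst7 and 60.9 and 40.8 in siControl, so the groups overlapped in both measures. The other 5 regions of the locus were all called in the 4 libraries. In 2 of these the fold enrichment of both siChst7 libraries lay below that of both siControl libraries, as at chr1:162207076-162207697 with 9.46 and 8.05 in siChst7 and 11.2 and 13.3 in siControl. The start of Dnm3, outside the 50 kb window, had a region 0.069 kb from it called in all 4 libraries.

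Mir21a lies on the minus strand at the end of Vmp1, which encodes a membrane protein of autophagy (chr11:86583858-86683836, minus strand). Its primary transcript is known to start within Vmp1 from a promoter of its own. No peak covered the Mir21a hairpin at chr11:86584067-86584158. The nearest region, chr11:86586384-86587603, lay 2.23 kb upstream and had the highest mean −log10 q of all 58 regions. Its −log10 q was 264 and 201 in siChst7 and 291 and 317 in siControl, and only 1.36% and 1.72% of peaks in the siChst7 lists and 1.00% and 0.573% in the siControl lists were higher. Its fold enrichment was 10.4 and 10.7 in siChst7 and 11.5 and 12.8 in siControl. Both siChst7 values of each measure lay below both siControl values. The summits fell at −2826 and −2858 bp from the first base of the hairpin in siChst7 and at −2821 and −2807 bp in siControl, where a negative sign is upstream. Of the 14 regions of this locus called in all 4 libraries, both siChst7 fold enrichments lay below both siControl values in 3, this region included. They lay above in 3 others, as at chr11:86623921-86624835, with 14.5 and 14.8 in siChst7 and 11.6 and 13.8 in siControl.

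On the other side of Mir21a, past the end of Vmp1, a region 2.30 kb downstream had a fold enrichment of 4.45 and 4.35 in siChst7 and 3.91 and 4.49 in siControl. The start of Vmp1 lay outside the window and was covered by chr11:86683347-86684332, with 10.04 and 10.3 in siChst7 and 12.8 and 10.8 in siControl. The start of Tubd1, which encodes a tubulin, lay at the far side of the window under chr11:86544563-86545396. There the −log10 q was 281 and 217 in siChst7 and 255 and 287 in siControl, close to that of the region upstream of Mir21a. A region with a peak in both siControl libraries and in no siChst7 library (siControl-specific) lay 20.5 kb upstream of Mir21a within Vmp1, at chr11:86604673-86604997. Its −log10 q was 11.2 and 8.55, which placed it at rank 861 of the 2562 siControl-specific regions of the series. It lost this call at a −log10 q of at least 10.

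Mir145a and Mir143 lie 1301 bp apart within Carmn, also named Mir143hg (chr18:61645878-61665538), and the noncoding gene Bvht, known in mouse for a role in cardiac lineage commitment, overlaps the lower-coordinate end of Carmn. The region over Mir145a, chr18:61647288-61648068, also covered an end of Bvht. Its fold enrichment was 4.32 and 5.97 in siChst7 and 5.72 and 4.99 in siControl. Its −log10 q was 22.1 and 31.6 in siChst7 and 40.7 and 30.4 in siControl. The groups overlapped, and siChst7 replicate 1 was lowest in both measures. The peak of that library was 292 bp wide with a summit at −444 bp from the lower-coordinate end of Mir145a and covered 0 bases of the hairpin. In siChst7 replicate 2 the summit lay at 113 bp, and in both siControl libraries at 107 bp, and all 70 bases were covered in these 3. Mir143 lay 1.13 kb from this region and had no peak over it.

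The higher-coordinate end of Carmn was covered by a wide region, chr18:61665111-61666725. Its −log10 q was 134 and 125 in siChst7 and 170 and 165 in siControl, while the fold enrichment was 8.39 and 9.61 in siChst7 and 9.57 and 9.63 in siControl. The siChst7 values of the −log10 q lay below the siControl values, and the fold enrichment overlapped. The region with the highest mean −log10 q of the locus, chr18:61684736-61685509, lay outside Carmn with a fold enrichment of 19.96 and 18.7 in siChst7 and 20.2 and 21.5 in siControl. At the lower-coordinate end of Bvht, chr18:61639560-61640113, the fold enrichment was 3.52 and 2.91 in siChst7 and 4.45 and 3.96 in siControl. The order was the reverse at chr18:61657616-61658370 within Carmn, with 7.22 and 7.48 in siChst7 and 5.97 and 5.49 in siControl. Next to it, chr18:61659010-61659478 was missing in siChst7 replicate 2 only. Of the other regions of the locus, chr18:61674070-61674415 was also missing in siChst7 replicate 2 only, and 3 were each called in a single library. The locus held no group-specific region. In the stretch drawn in the map of peaks around Mir145a and Mir143, the gap at chr18:61659010-61659478 is the only region not called in all 4 libraries.

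**Figure D3:**
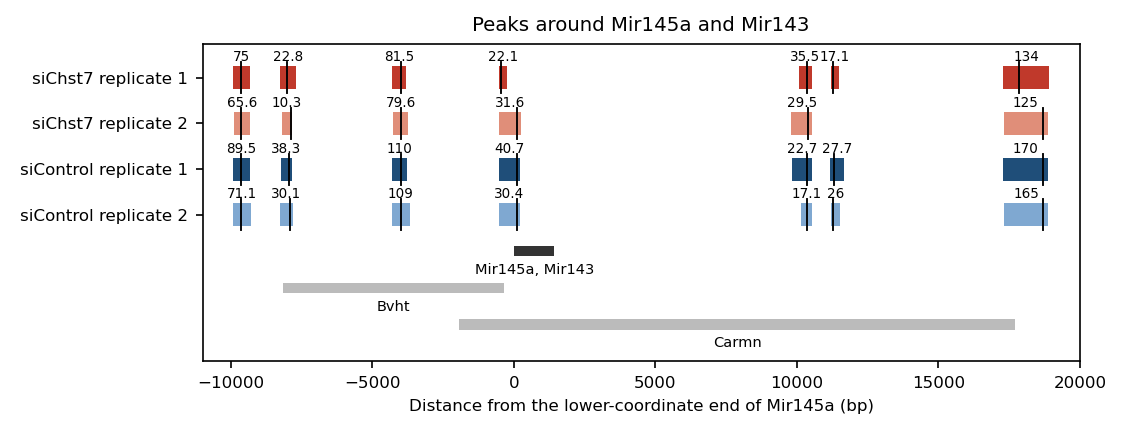
Bars are peaks in each library around Mir145a and Mir143 (x axis, bp from the lower-coordinate end of Mir145a, in genome direction), with the −log10 q above each bar and a black tick at the summit. The upper pair of rows is siChst7 and the lower pair siControl, with the genes below. The narrow bar of siChst7 replicate 1 near 0 stops short of Mir145a, while the bars of the other 3 libraries span it.

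Mir133a-1 and Mir1a-2, which make miR-133a and miR-1, lie within Mib1, which encodes a ubiquitin ligase of Notch signalling, and within the host transcript Mir133a-1hg on chromosome 18. The table lists Mir1b over the same position as Mir1a-2, so regions near Mir1a-2 and near Mir1b cannot be told apart. Regions close to these hairpins were weak in all 4 libraries. At chr18:10783278-10783668, 0.302 kb from Mir133a-1, the −log10 q was 6.22 and 3.58 in siChst7 and 4.12 and 4.28 in siControl. At chr18:10783972-10784478, between the hairpins and 1.00 kb from Mir1a-2, it was 10.9 and 8.34 in siChst7 and 9.39 and 8.90 in siControl. The groups overlapped at both. In each list between 75.3% and 81.6% of peaks were higher than the second of these.

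The third region within Mir133a-1hg, chr18:10787695-10787989, had a fold enrichment of 4.37 and 3.95 in siChst7 and 3.87 and 3.53 in siControl, with a −log10 q of 5.89 and 4.04 in siChst7 and 4.20 and 3.17 in siControl. The fold enrichment of both siChst7 libraries lay above that of both siControl libraries there, and the −log10 q overlapped. The highest mean −log10 q of the locus was at chr18:10826782-10827210, beyond Mib1, with a fold enrichment of 10.02 and 10.3 in siChst7 and 13.9 and 11.6 in siControl. A peak of siChst7 replicate 1 alone, at chr18:10776452-10776752 and 1.55 kb from an end of Mir133a-1hg, had a fold enrichment of 12.9 and a −log10 q of 32.7. It ranked 7 among the 4614 regions called only in that library, whose median was 5.45, and no peak of siChst7 replicate 2 matched it. It is named after its values were seen. An end of Mib1 was covered by a region called in all 4 libraries, outside the window.

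Mir1a-1 and Mir133a-2 lie within Mir1a-1hg (chr2:180385604-180401802, plus strand), the other transcript that makes miR-1 and miR-133a. No region lay over any base of Mir1a-1hg. A stretch of 57.4 kb without a peak in any library held the whole host transcript and both hairpins, and 7.51% of the stretches between merged regions of the series were at least as long. The nearest region, chr2:180411132-180411363, was a peak of siControl replicate 2 alone with a −log10 q of 6.91, at 12.7 kb from Mir133a-2 and 22 kb from Mir1a-1. The nearest regions called in all 4 libraries were chr2:180353261-180353768 and chr2:180432114-180432698. The first had a fold enrichment of 7.95 and 6.83 in siChst7 and 5.78 and 9.73 in siControl. The second had 9.39 and 8.33 in siChst7 and 8.29 and 10.05 in siControl. The groups overlapped at both.

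This locus held 2 siControl-specific regions. At chr2:180350842-180351132, 37.9 kb upstream of Mir1a-1, the −log10 q was 6.0 and 9.85. At chr2:180417675-180417952, 19.2 kb from Mir133a-2, it was 3.35 and 6.02. They ranked 1227 and 2216 among the 2562 siControl-specific regions, and both lost the call at a −log10 q of at least 10 and with lists of equal length. The second of them also lost it at a −log10 q of at least 5. The region with the highest mean −log10 q, chr2:180346889-180347535, had a fold enrichment of 11.6 and 13.3 in siChst7 and 13.8 and 14.3 in siControl, with both siChst7 values the lower ones.

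Across the 5 loci, 1 of 58 regions was siChst7-specific, or 1.72%, against 1.24% of all merged regions, and 3 of 58 were siControl-specific, or 5.17%, against 2.84%. Both shares rest on few regions, and they were not tested. With lists of equal length the balance turned, with 3.85% siChst7-specific and 1.92% siControl-specific in the loci, against 1.96% and 2.05% of all merged regions. At a −log10 q of at least 10 the loci held no siControl-specific region, against 2.69% of all merged regions. Of the others, 6 (10.3% of the 58) were called in 3 libraries, against 10.4% of all merged regions. In a single library 10 (17.2%) were called, against 17.5%. Of these 10, 2 and 1 were in siChst7 replicates 1 and 2 and 2 and 5 in siControl replicates 1 and 2. Over all merged regions the numbers were 4614 and 1877 in siChst7 and 4111 and 5182 in siControl. The chart of calls by locus shows that the siControl-specific regions lay at Mir1a-1 and Mir133a-2 and at Mir21a. Without siChst7 replicate 1, siChst7 replicate 2, siControl replicate 1 or siControl replicate 2, the loci held 56, 57, 56 or 53 regions. The siChst7-specific count was then 2, 3, 3 or 1 (3.57%, 5.26%, 5.36% or 1.89%). The siControl-specific count was 7, 3, 8 or 5 (12.5%, 5.26%, 14.3% or 9.43%). A region then has fewer conditions to meet, and over all merged regions the siChst7-specific share was 3.55%, 6.53%, 3.05% or 3.23% and the siControl-specific share 8.6%, 4.56%, 9.03% or 7.89%.

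**Figure D4:**
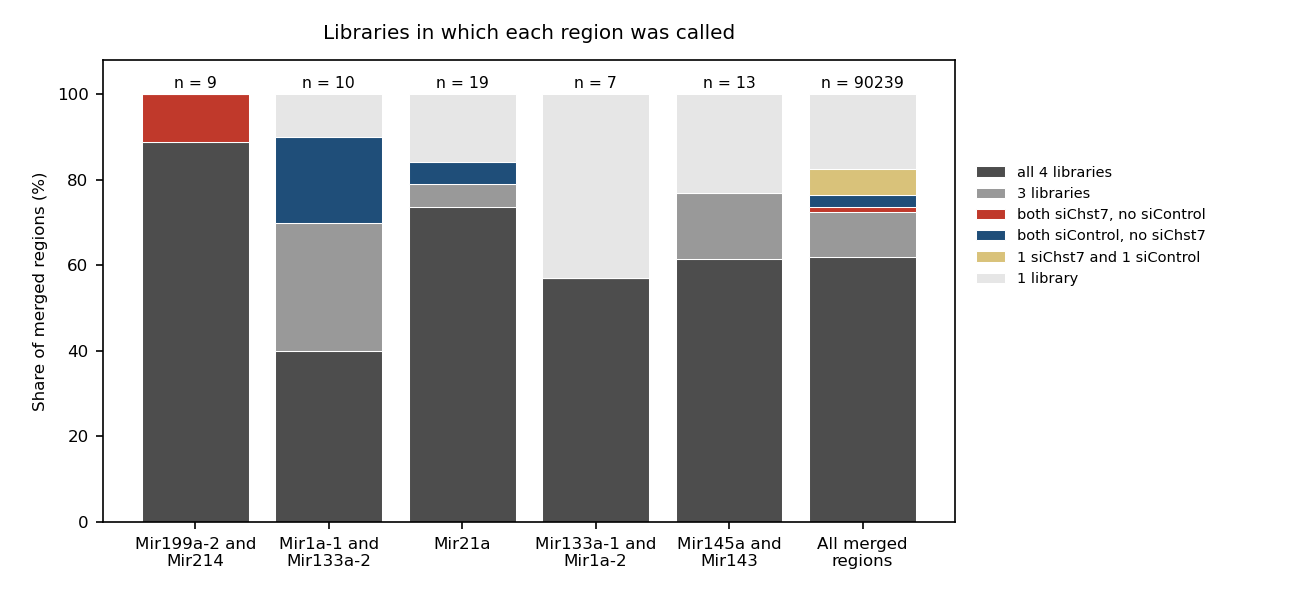
Bars give the share of merged regions (y axis, %) by the libraries in which they were called, for each locus and for all merged regions, with the number of regions above each bar. Red is both siChst7 and no siControl library, blue both siControl and no siChst7 library, and dark grey all 4. The red part is seen at Mir199a-2 and Mir214 (1 of 9) and the blue part at Mir1a-1 and Mir133a-2 (2 of 10) and Mir21a (1 of 19).

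The number of peaks in the 5 loci was 47 and 42 in siChst7 and 49 and 50 in siControl, with means of 44.5 ± 3.54 in siChst7 and 49.5 ± 0.707 in siControl (SD, n = 2 each). The difference of −5 gave a p of 0.333 in a two-sided exact permutation test over the 4 libraries, which is the smallest p that 2 against 2 allows. The direction turned to 1 more peak in siChst7 at a −log10 q of at least 10 and to 0.5 more with lists of equal length. Without siChst7 replicate 2, whose list was the shortest, the difference was −2.5. As a share of each list the loci held 0.0632% and 0.0635% of peaks in siChst7 and 0.0664% and 0.0661% in siControl. The peaks covered 25 and 22.3 kb in siChst7 and 26.1 and 25.6 kb in siControl.

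At the 38 regions called in all 4 libraries, both siChst7 fold enrichments lay below both siControl values in 9, or 23.7%, against 29.8% of such regions in the series. They lay above in 5, or 13.2%, against 11.2%, and overlapped in 24. The shares of the loci were near those of the series in both directions. The median of the mean −log10 q over the 38 regions was 34.9, against 35.1 over the series, and the median fold enrichment was 7.5, against 9.27. The plot of fold enrichment at the regions nearest to the genes shows how close most of the 4 values lay to each other.

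**Figure D5:**
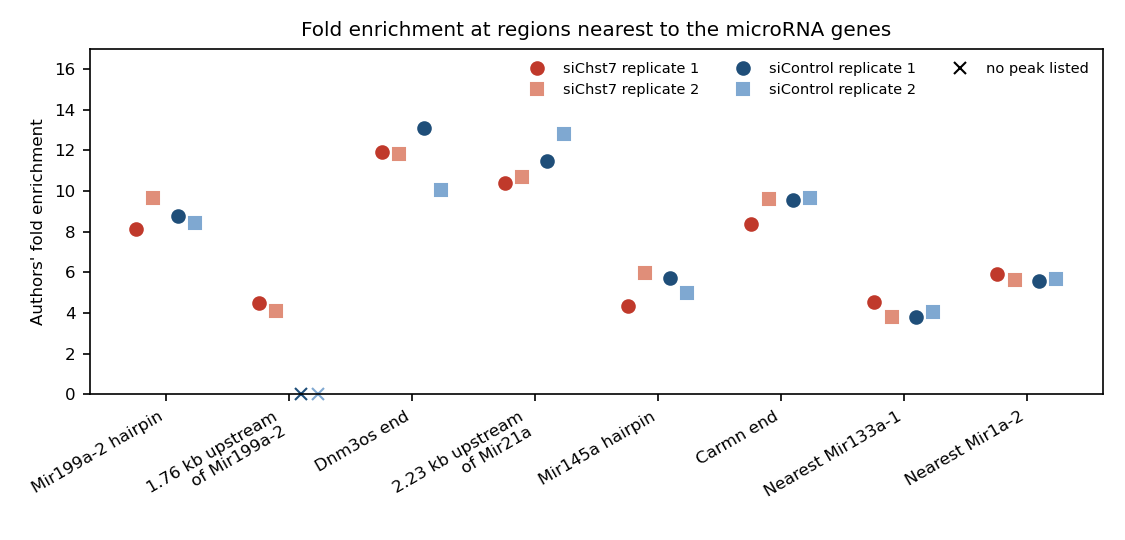
Points are the authors' fold enrichment (y axis) in each library at 8 regions over or near the microRNA genes or over an end of a host gene, with siChst7 in red left of siControl in blue, and crosses at 0 where no peak was listed. The crosses stand at the region 1.76 kb upstream of Mir199a-2 in both siControl libraries. At the region 2.23 kb upstream of Mir21a both red points, 10.4 and 10.7, lie below both blue points, 11.5 and 12.8.

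The 9 genes had a median of 9 regions within 50 kb (quartiles 8 and 12), and the other 1219 microRNA genes of the table had a median of 7 (3 and 11). The median number called in all 4 libraries was 7 for the 9 genes and 4 for the others. A region called in all 4 libraries covered the hairpin of 2 of the 9 genes (22.2%) and of 106 of the others (8.70%). At least 1 siChst7-specific region lay within 50 kb of 2 of the 9 and 6.32% of the others, and at least 1 siControl-specific region within 50 kb of 3 of the 9 and 14.6% of the others. Neighbouring members share their windows and are not independent. The windows end at 50 kb by choice. The outermost regions inside them lay 19.7 to 48.8 kb from a member, and the next ones outside 50.8 to 62.1 kb. At Mir21a, for example, the outermost region on 1 side lay 45.3 kb away inside the window, in siChst7 replicate 2 alone, with a −log10 q of 4.74. On the other side a region lay just outside at 50.8 kb, with 6.99 in siChst7 replicate 1 and 8.21 in siControl replicate 2.

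Other microRNA genes of heart and skeletal muscle had a region called in all 4 libraries within 1 kb of a gene end in 4 of 10 cases, namely Mir206, Mir378a, Mir22 and Mir30a, and 16.7% of the 1219 microRNA genes other than the 9 had one. Of these, Mir206, whose product is related to miR-1, had it over the hairpin. The heart genes Mir208a, Mir208b and Mir499, which lie in myosin genes, had none, and no gene of this list had a group-specific region within 50 kb. Among other microRNA genes of fibroblasts, fibrosis and smooth muscle it was 7 of 20. Several genes of these lists are neighbours and share regions. The remaining copies of the miR-199 family, Mir199a-1 and Mir199b, each had a region called in all 4 libraries overlapping the hairpin. Whether the peak of each library reached the hairpin was not determined for these genes. A siControl-specific region lay 0.682 kb from Mir199b, at chr2:32319251-32319609, with a −log10 q of 10.2 and 16.4. Further siControl-specific regions lay 33.6 to 34 kb from the Mir23a, Mir27a and Mir24-2 cluster and 38.4 kb from Mir34a. A siChst7-specific region lay 5.91 kb from Mir100, with a −log10 q of 3.88 and 5.60, and another 24.9 and 24.5 kb from Mir29a and Mir29b-1, with 9.41 and 9.68. In this list of 20, 5 genes had a siControl-specific region within 50 kb and 3 a siChst7-specific one. For the 1219 microRNA genes other than the 9 the shares were 14.6% and 6.32%. The difference was not tested.

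Of the genes that make or use microRNAs, 10 of 13 had a region called in all 4 libraries within 1 kb of a gene end, against 54.4% of protein-coding genes, among them Drosha, Dgcr8, Dicer1 and Ago2. Dgcr8, the partner of Drosha, held a siControl-specific region at chr16:18268255-18268453 with a −log10 q of 23.3 and 17.8. Tnrc6a, which encodes a protein of the silencing complex, held 2, with 9.39 and 7.83 at chr7:123035369-123035623 and with 27.4 and 35.9 at chr7:123069272-123069568. Of the known upstream regulators 9 of 16 had a region called in all 4 libraries within 1 kb of an end, a share near that of protein-coding genes. These were the Dnm3os activator Twist1, the serum response factor partners Myocd, Mrtfa and Mrtfb, and Jun, Fos, Fosl1, Stat3 and Smad3. Mef2c, Gata4 and Tbx5, the induced factors, had none there, and each had a region called in all 4 libraries elsewhere over the gene. All 4 libraries carry induced copies of these factors, and whether reads of those copies add to the regions was not tested. Gata4 had a siChst7-specific region 45.8 kb away, with a −log10 q of 6.31 and 6.08. Regions that were siControl-specific lay within Smad3, at or near Mrtfb (3 regions), 16.1 kb from Srf and 43.7 kb from Myod1. Within 50 kb, 4 of the 16 regulators had a siControl-specific region and 1 a siChst7-specific one. For the 13 genes that make or use microRNAs the counts were 2 and 0. The matching share of all protein-coding genes was not computed, so these counts cannot be called high or low. Of all merged regions, 2.84% were siControl-specific and 1.24% siChst7-specific. Of the host genes and transcripts listed, 5 of 6 had a region called in all 4 libraries within 1 kb of an end, and the exception was Mir1a-1hg. The share was 54.4% of protein-coding genes. It was not computed for noncoding transcripts, which are also in that list, so the count cannot be called high or low. The host transcript Mir133a-1hg was not in that list and had none within 1 kb either. The regions nearest to its ends lay 1.55 kb away, in siChst7 replicate 1 alone, and 3.4 kb away.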

How the data were processed

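Bulk ATAC-seq libraries were made from the iMGT-Myh6-eGFP-MEF line at day 1 of induction, 2 with siChst7 and 2 with siControl. Per the labels' protocols, 500000 cells were plated per plate, about 250000 frozen and thawed cells were used per condition, and paired reads of 75 bp were sequenced. Per the submitters' processing notes, the tools were MACS3, Bowtie, HOMER, SAMtools and bedtools and the build was mm10, without versions or roles. Any read filter or Tn5 shift was not given in the sources used here. The deposited files hold 1 peak list per library. As deposited by the authors, fold enrichment is the ratio of the summit pileup to the background of the same library, and the −log10 q deposited by the authors is that of the summit. The deposited score is 10 times the −log10 q and was not used further. The other deposited columns used were the start, end and summit of each peak.

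Peaks on chromosomes 1 to 19, X and Y were merged at an overlap of at least 1 bp with Python 3.11.15, numpy 2.4.6 and pandas 2.3.3. Peaks on other sequences (71 and 62 in siChst7, 68 and 77 in siControl) were left out. No peak-by-peak test between libraries was made, since the lists hold no read counts. Peaks per library were compared with an exact permutation test. Regions are not replicates, so their counts were set beside the share of all merged regions. RefSeq gives no exons in the table used here, so exonic and intronic positions were not told apart, and the strand was known only where a sequence table gave it. The merging was tested on simulated data. Named were all 9 genes and their hosts, regions over a hairpin or a host gene end, the nearest region to each gene, the one with the highest mean −log10 q per locus and each group-specific region, the rest by count or range, with a few added after their values were seen. The genes, lists and this rule were chosen with earlier results of these data known. Alternatives were flanks of 25 and 100 kb, a −log10 q of at least 5 or 10, windows of 200 bp around summits, lists of equal length, peaks of at least 200 bp, each library left out, and the replicate number as a block.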

Additional observations from a re-analysis of the deposited data

How the results depend on the processing

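The count of 38 regions called in all 4 libraries became 23 with flanks of 25 kb and 70 with flanks of 100 kb, which hold fewer and more regions by construction, and ranged from 38 to 42 with 1 library left out. The single siChst7-specific region became 2 with flanks of 100 kb, with a −log10 q of at least 5 and with lists of equal length, where the share of all merged regions was 1.24%, 1.21% and 1.96%, and 1 to 3 with 1 library left out. The 3 siControl-specific regions became 0 at a −log10 q of at least 10 and 1 with lists of equal length, where the share of all merged regions was 2.69% and 2.05%, against 2.84% with none of these limits, and 3 to 8 with 1 library left out. The difference of −5 peaks per library turned to 1 at a −log10 q of at least 10 (exact permutation p = 0.667) and to 0.5 with lists of equal length (p = 1), and ranged from −7.5 to −2.5 with 1 library left out. The cause of these reversals was not tested. With the replicate number as a block the difference was −5, with an exact sign-flip p of 0.5. Deviations of same-numbered libraries had a correlation of 0.0114 over the fold enrichments of regions called in all 4. That value cannot settle whether same-numbered libraries were made together. The main comparison used the numbers to name the samples only. The depth of the libraries is unknown, and a peak missing from 1 list does not give the signal there.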
